A study of Homo sapiens with 12 samples.

Results

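The genes described here encode the proteins of the cytosolic ribosome. They were chosen by symbol alone, as RPSA or any symbol made of RPL or RPS followed by P0, P1, P2 or a number with an optional final A, X or L. This gave 83 of the 57820 genes listed, 49 of the large and 34 of the small subunit. No measured value entered the symbol rule itself, but the set was chosen with earlier results of these data known. The pattern also takes paralogs such as RPL3L, RPL10L, RPL39L and RPS27L, and RPS10L, which GENCODE lists as a processed pseudogene, and it leaves out FAU and RPL36AL, which encode ribosomal proteins under other names.

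A ribosome is built from a small subunit, which reads the messenger RNA, and a large subunit, which joins amino acids and lets the new chain out through a tunnel. Each protein is needed in about 1 copy per ribosome, except the stalk proteins P1 and P2, so the genes are transcribed at high and roughly balanced levels in growing cells. Their messenger RNAs typically begin with a C followed by a run of pyrimidines, the terminal oligopyrimidine (TOP) tract, through which LARP1 and the kinase mTOR control translation. MYC, GABPA and YY1 are among the transcription factors known to act on these genes.

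Poly(A) RNA was sequenced in 12 libraries from 2 human squamous carcinoma lines in which the dose or form of KLF5, an epithelial zinc-finger transcription factor, was changed. BICR31, a head and neck squamous carcinoma line, received a small interfering RNA against KLF5 (siKLF5) or the negative control siNC, with 3 libraries each. HCC95, from a lung squamous cell carcinoma, overexpressed an empty vector (Empty), wild-type KLF5 (WT) or KLF5 E419Q, a missense form changed in the DNA-binding part, with 2 libraries each. No source used here gives the vector's promoter or when cells were harvested, and each line stands for 1 tumour. Whether replicates were grown apart is not stated in the labels, and p-values therefore cover the spread among the libraries alone, which can be technical. HCC95 libraries held 3074140 to 4643790 expected counts, and BICR31 libraries an estimated 1922550 to 2297360. KLF5 itself fell with siKLF5 (log2 fold change -1.40, 959 ± 67.5 against 2530.1 ± 211 units of the deposited signal, SD, n = 3, limma adjusted p = 7.27e-09). It rose with WT (1.52, 413 ± 11.9 against 144 ± 9.87 in CPM, the counts scaled by library size, n = 2) and with E419Q (1.58, 429.8 ± 9.52 CPM), with edgeR adjusted p = 5.46e-13 and 1.17e-13. All 8 squamous markers (among them KRT5, TP63 and SFN) were above 0 in each of the 5 groups.

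The bases around the start of transcription show what these genes share. RefSeq windows on GRCh38.p14 were found for 64 of the 83 genes. A gene with several annotated starts counted if any of its windows held the feature. A C followed by at least 4 pyrimidines began within 10 bases of an annotated start in 57 of the 64 (89.1%), against 38.4% of 27305 genes with a window. It began exactly at a start in 46 (71.9%), against 5.14% of all genes. In the windows below, 20 bases before the start and 10 from the start on are given 5′ to 3′ on the gene's strand, and capitals mark the tract. For a gene with several windows, the one whose tract begins nearest the start is shown. The first are genes of which the levels are described further on, and the last 2 are genes in which no such tract began within 10 bases of the start. The windows lie at chr2:101002269-101002298 (RPL31, plus strand), chr3:197950170-197950199 (RPL35A, plus strand), chr6:33272055-33272084 (RPS18, plus strand), chr12:120201102-120201131 (RPLP0, minus strand), chr3:39406700-39406729 (RPSA, plus strand), chrX:119791621-119791650 (RPL39, minus strand), chr14:49598701-49598730 (RPS29, minus strand) and chr15:63157468-63157497 (RPS27L, minus strand).
RPL31: ctcccacaatccttcgcgctCTTCCTTTCC
RPL35A: ccacgcggcggggcctcgtcCTTCTCTTac
RPS18: gatatcgcgtcacttccgctCTCTCTTCCa
RPLP0: ggcacgcgcgggcgcgaggcCCTTCTCTCg
RPSA: cgtcatttcctgccgcctgtCTTTTCCgtg
RPL39: gctcgttcttccgccagcttCCCTCCTCTT
RPS29: ttttcccccgagcgcgcagctggcagcggt
RPS27L: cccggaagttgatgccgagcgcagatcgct

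In the windows of 250 bases before to 50 after the start, short motifs were counted on both strands, again in any window of a gene. The ETS core CGGAAG, the letters read by GABPA, was found in 41 of 64 genes (64.1%) against 22.6% of all genes with a window. The YY1 core GATGGC was found in 34.4% against 15.4%. The GC box can overlap the ETS core by 3 letters. CACCC, which is not the only motif read by KLF factors, was found in 56.3% against 63.1%. GGGCGG, the GC box, was found in 59.4% against 48.3%, and TATAAA in 9.38% against 14.0%. CACCC was found in 46.2% of 39 large-subunit and 72.0% of 25 small-subunit genes with a window. A match is a run of letters and not a site.

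The control groups give the levels of the genes without altered KLF5. For HCC95, levels per length are given as TPM, the deposited level scaled for transcript length and library size. For BICR31 they are the signal divided by effective gene length and scaled to the same total. These effective lengths are means over the HCC95 libraries, so the BICR31 values depend on how reads were assigned in HCC95. In Empty the highest were RPS2 (6206 TPM), RPS21 (5221 TPM), RPS18 (5074 TPM), RPL12 (4231 TPM) and RPL8 (4183 TPM). RPL10L and RPL3L were listed at 0 TPM and RPS10L at 0.600 TPM. RPS28 (12.3 TPM) and RPS26 (29.9 TPM), both parts of the small subunit in every ribosome, were also near the bottom, beside the paralog RPS27L (32.3 TPM). In siNC the length-scaled values of RPS28 and RPS26 were 313 and 818, against 30.1 for RPS27L, and their ranks from the top were 78 and 68 of 83 (80 and 79 in Empty). The HCC95 gene lengths behind these values were 1083 bases for RPS28 and 882 for RPS26. Those lengths rest on means of 33.2 and 41.9 expected counts in HCC95. RPL21 stood at 133 TPM in Empty (rank 77) and at 1236 length-scaled in siNC (rank 58). Across the 83 genes, the 2 control groups gave a Spearman correlation of 0.81, a description over points that share their libraries. Both sets of values were scaled by lengths from HCC95, and the part of these shared lengths in the correlation was not tested.

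**Figure D1:**
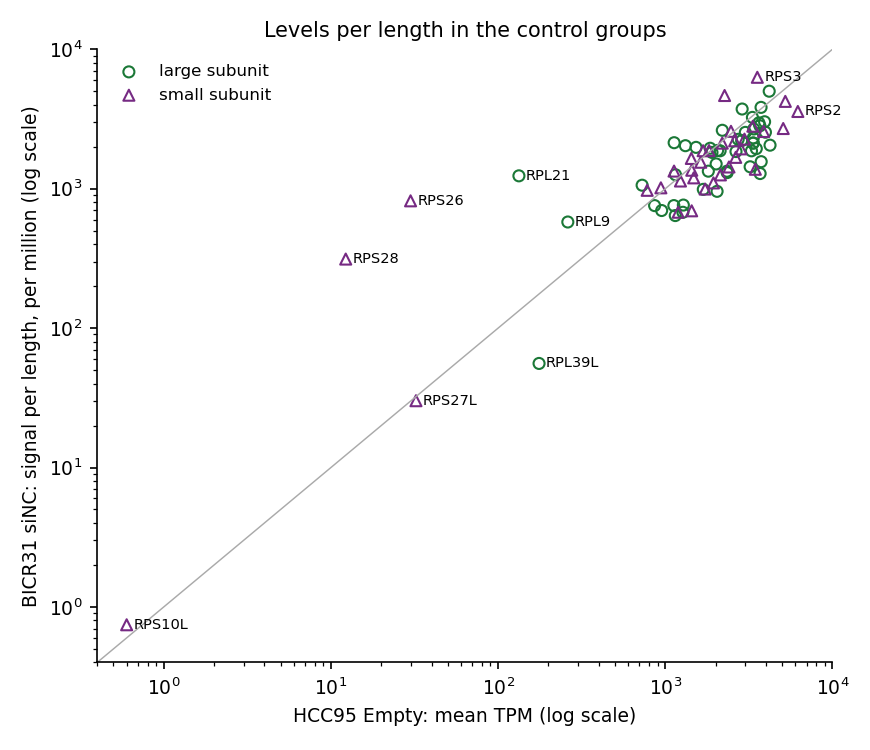
Level per length of each ribosomal protein gene above 0 in both control groups, on logarithmic axes. The horizontal axis is mean TPM in HCC95 Empty. The vertical axis is signal in BICR31 siNC scaled by gene lengths from HCC95. Circles are large-subunit and triangles small-subunit genes, and RPS28, RPS26 and RPL21 lie far above the line of equal values while RPL39L, at 176 TPM and 55.8, lies under it.

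In BICR31, nearly as many ribosomal protein genes fell with siKLF5 as did not pass the test, and few rose. Of 81 genes tested, 37 fell and 2 rose, against 10.8% of all 15710 genes that fell and 15.3% that rose. Their median log2 fold change was -0.13, against 0.04 over all genes. With the trend in gene length removed, 31 fell and the median was -0.08, against -0.003 over all genes. Among 927 other genes of the highest means, 26.8% fell and 35.7% rose. The libraries of the 2 groups did not overlap in 53 of the 81 genes, against 40.0% of all genes. RPL10L and RPS10L did not pass the filter on low values. Among the genes that fell, RPL28 fell by 8.04%, a call lost in 4 of the 6 fits with 1 library left out, and RPL39L by 61.6%. In these bulk libraries fewer cells of a type and less RNA per cell cannot be told apart.

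RPLP0, RPLP1 and RPLP2 form the stalk of the large subunit, which recruits elongation factors. RPLP0, the base of the stalk, stood at 24281, 22516 and 23267 units in siKLF5 A, B and C and at 30419, 30355 and 31183 units in siNC A, B and C. Every siKLF5 library lay under every siNC library. Its log2 fold change was -0.39 (SE 0.0355, limma adjusted p = 3.23e-07). RPLP1, which binds RPLP0 as a dimer with RPLP2, fell by 0.37 on the log2 scale (SE 0.0644, limma adjusted p = 3.37e-04). RPLP2 did not pass the test (-0.10, 95% interval -0.21 to 0.00).

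Of the small-subunit genes 17 fell, and RPS2 had the smallest adjusted p of all 81 genes. RPS2, at the entry of the messenger RNA channel, was measured at 22718, 23563 and 23168 units with siKLF5 against 30251, 30242.5 and 30654 with siNC. The groups were far apart relative to their spread, and the log2 fold change was -0.39 (SE 0.0324, limma adjusted p = 1.17e-07). RPS3, also at the channel entry, was the most abundant per length in siNC and fell by 0.22 on the log2 scale, but by 0.05 with quantile normalisation, where the call was lost (limma adjusted p = 0.275). RPSA, the laminin-receptor homologue on the back of the subunit, fell by 0.37 (8422 ± 314 against 10865 ± 211 units, limma adjusted p = 1.16e-05). RPS29, a small zinc-binding protein of the head, fell by 0.69, the largest fall among the small-subunit genes. Its values were 2289.6, 1941 and 2338 units with siKLF5 against 4103, 3312 and 3212 with siNC. RPS27 (-0.37), RPS13 (-0.44), RPS16 (-0.30), RPS20 (-0.25), RPS12 (-0.27) and RPS25 (-0.31) fell too.

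RPL39 and its paralog RPL39L encode 2 forms of a small protein that lines the exit tunnel, and RPL39L is best known from male germ cells. RPL39 was measured at 3547, 3283 and 3559 units with siKLF5 and at 4700.0, 4831 and 4634 with siNC, which gave -0.45 on the log2 scale (SE 0.0597, limma adjusted p = 2.56e-05). RPL39L was measured at 181, 183 and 86.6 units with siKLF5 and at 400.0, 356 and 361 with siNC. It had the largest change of all 81 genes, -1.38 (SE 0.268, limma adjusted p = 8.91e-04), at a level of few reads, since 1 count was worth 7.87 to 9.12 units. siKLF5 C was lower than its partners, and the call held with that library left out. RPL3, at the peptidyl transferase centre, fell by 0.23, RPL4 (-0.22) and RPL10 (-0.23) fell likewise, and RPL12 (-0.34), RPL14 (-0.35) and RPL21 (-0.34) fell more.

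A few genes went the other way or did not pass the test. RPL37A, a zinc-binding protein of the large subunit, rose by 0.30 on the log2 scale (SE 0.0484, limma adjusted p = 1.92e-04), from 6536, 6747 and 6386 to 8266, 7883 and 8008 units. All 3 siKLF5 libraries lay above all 3 siNC libraries. RPL13 rose by 0.17, with overlapping groups, and did not pass once siKLF5 A (adjusted p = 0.178), siKLF5 C (0.0807), siNC A (0.138) or siNC C (0.0763) was left out, nor with quantile normalisation (0.127) or TMM scaling (0.0880). RPL5 and RPL11, which form the 5S particle and can bind MDM2, gave -0.08 (95% interval -0.18 to 0.03) and -0.07 (-0.19 to 0.06). RPS27L, a paralog of RPS27 known as a p53 target, was at 293 ± 21.1 against 215 ± 37.6 units (0.46, 95% interval 0.02 to 0.90, limma adjusted p = 0.122). RPL3L, the muscle form of RPL3, was at 19.1 ± 5.16 against 27.3 ± 18.3 units, near the worth of 3 counts.

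Falls were called in both subunits. Of 48 large-subunit genes 20 fell and 2 rose (median -0.11, and -0.07 with the length trend removed), and of 33 small-subunit genes 17 fell and 0 rose (median -0.17). By unadjusted p under 0.05, 26 of the large-subunit and 23 of the small-subunit genes passed in either direction, against 5710 of all 15710 genes. With single libraries left out, between 30 and 37 genes fell and 1 or 2 rose. The calls of 28 of the 37 were kept whichever library was left out. Lists of other cell types moved with this comparison: the 5 fibroblast markers summed to 1889.85 to 2200.0 units with siKLF5 (DCN and LUM at 0) against 845 to 930.1 with siNC. The 5 immune markers (MS4A1 and CD3E at 0 in both) summed to 811 to 897 against 434 to 525 units. The 3 endothelial markers measured summed to 268 to 427 against 164 to 246, and the 8 squamous markers to 86119 to 90291 against 134408 to 138067. The part of these in the result was not tested.

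**Figure D2:**
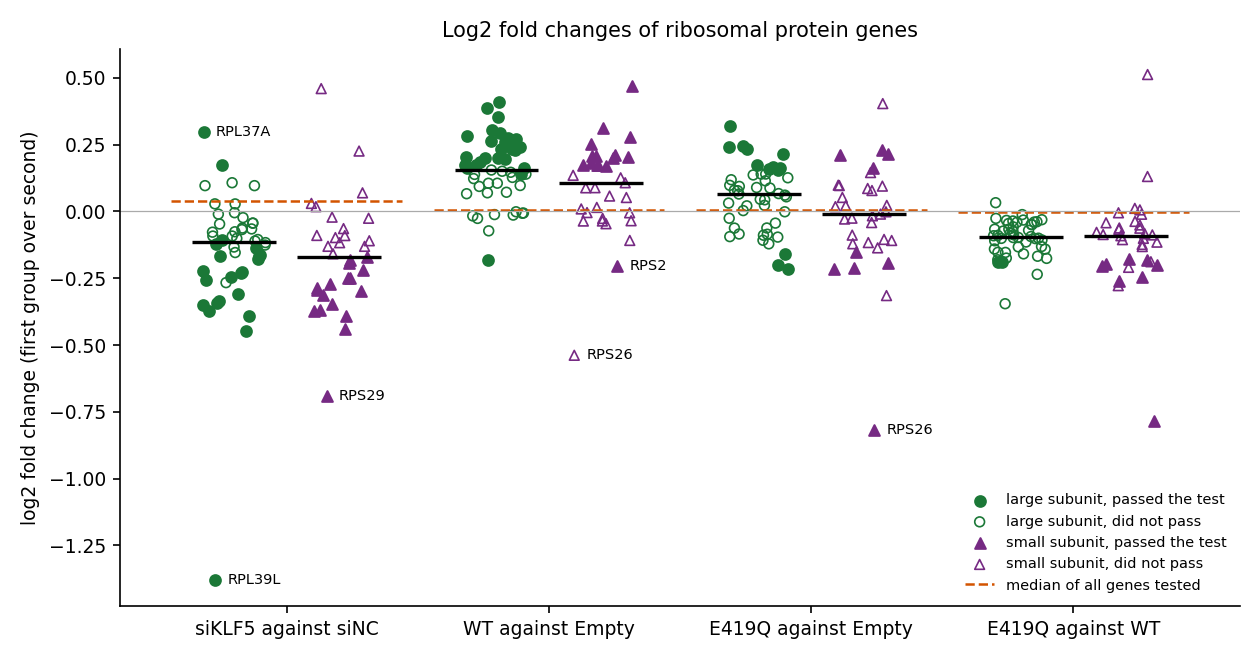
Log2 fold change of each ribosomal protein gene in the 4 comparisons, with large-subunit genes as circles and small-subunit genes as triangles, filled where the adjusted p was under 0.05. Black bars are the medians of each subunit and dashed lines the medians of all genes tested. With siKLF5 both medians lie below the dashed line (-0.11 and -0.17), with WT both lie above it (0.15 and 0.11), and with E419Q they lie close to it.

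Summed over the 83 genes, ribosomal protein messenger RNA made up 4.13% to 4.42% of the signal in siKLF5 libraries (4.31% ± 0.156, SD, n = 3) and 4.90% to 4.998% in siNC (4.96% ± 0.0535). The groups did not overlap. The ratio of summed large-subunit to small-subunit signal was 1.55 to 1.57 with siKLF5 and 1.495 to 1.51 with siNC. Without RPS2, the ratio was 1.68 to 1.70 against 1.64 to 1.66. The mean of log2 values over large-subunit genes exceeded that over small-subunit genes by 0.12 to 0.16 with siKLF5 and by 0.12 with siNC, and these values overlapped (in HCC95 by 0.43 in Empty, 0.48 and 0.52 in WT and 0.49 and 0.52 in E419Q).

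In HCC95 the empty-vector libraries held 6.05% and 6.35% ribosomal protein counts, WT libraries 6.77% and 6.86%, and E419Q libraries 6.36% and 6.53%. WT lay above Empty, and E419Q lay between them, with its library A at nearly the level of Empty A. The ratio of large to small subunit was 1.61 in both Empty libraries, 1.66 and 1.68 in WT and 1.65 and 1.68 in E419Q. Counted over the 35 genes whose reads were all assigned whole, the ratio was 1.57 and 1.63 in Empty, 1.604 and 1.62 in WT, within the Empty values, and 1.66 in both E419Q libraries. On the same genes the ratio was 1.44 to 1.47 with siKLF5 and 1.34 in each siNC library.

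**Figure D3:**
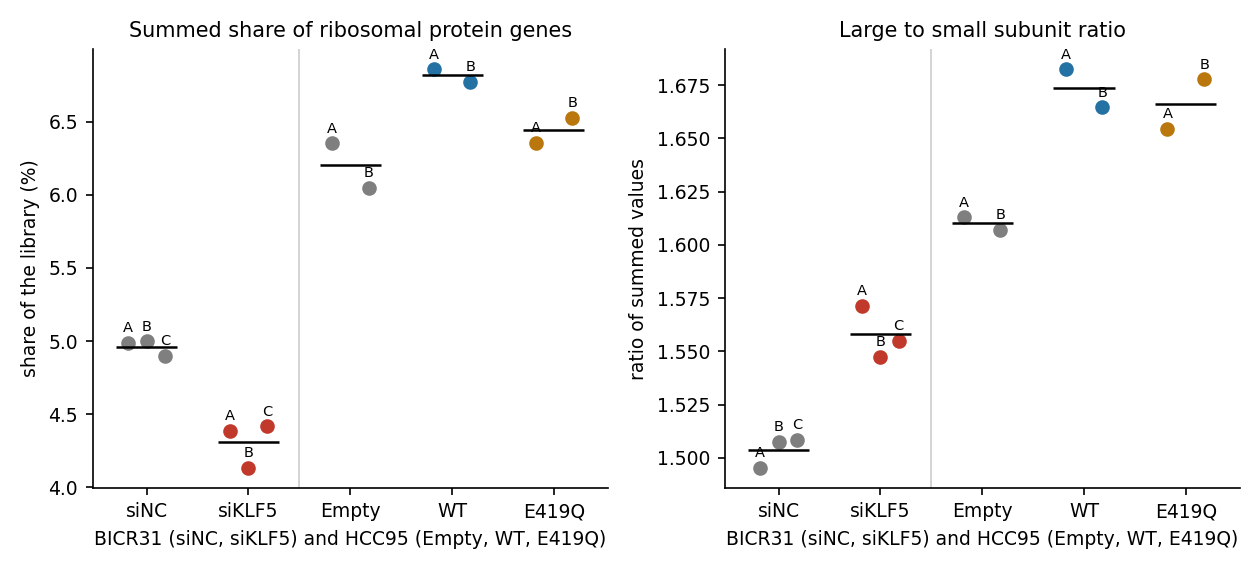
Summed share of ribosomal protein genes in each library, in percent (left), and ratio of summed large-subunit to small-subunit values (right), with letters for replicates and bars for group means; the vertical axes do not start at 0. The siKLF5 libraries (4.13% to 4.42%) lie under the siNC libraries (4.90% to 4.998%), and the WT libraries (6.77% and 6.86%) over the Empty libraries (6.05% and 6.35%).

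With WT KLF5 the called changes were nearly all rises, such as 30.6% for RPL31. Of 80 genes tested, 37 rose and 2 fell, against 10.8% of all 12933 genes that rose and 12.1% that fell. The median log2 fold change was 0.14, against 0.00 over all genes. In 60 of the 80 genes the groups did not overlap, against 7894 of all 12933 genes (61.0%). Among 926 other genes of the highest means, 16.4% rose and 34.3% fell. RPL10L, RPL3L and RPS10L did not pass the filter on low counts.

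RPL35A and RPL31 had the smallest adjusted p among the rises. RPL31, at the rim of the exit tunnel, was at 631 and 591 CPM in Empty A and B and at 803 and 791 CPM in WT A and B. Both WT libraries lay well above both Empty libraries (log2 fold change 0.39, SE 0.0553, edgeR adjusted p = 2.19e-05). RPL35A, one of the proteins whose loss causes Diamond-Blackfan anaemia, was at 918 and 902 CPM in Empty and at 1154 and 1169 CPM in WT (0.35, SE 0.0496, edgeR adjusted p = 1.73e-05). RPL26, which sits at the tunnel exit and can bind the p53 messenger RNA, rose by 0.28 on the log2 scale. RPL5 rose by 0.27, from 687 ± 7.47 to 829 ± 0.622 CPM (SD, n = 2), while RPL11, its partner in the 5S particle, rose by 0.17. The call of RPL11 was lost without Empty B (adjusted p = 0.1699), WT A (0.144) or WT B (0.0896). RPL10A (0.29), RPL13 (0.26), RPL29 (0.30), RPL15 (0.26), RPL7A (0.23), RPL13A (0.23), RPL23 (0.23) and RPL6 (0.20) rose and kept their calls with any single library left out.

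Among small-subunit genes RPS18, at the top of the head, had the smallest adjusted p. It was at 1574 and 1468 CPM in Empty and at 1907 and 1869 CPM in WT (log2 fold change 0.31, SE 0.0493, edgeR adjusted p = 6.96e-05). RPS6, the classical target of S6 kinase, rose by 0.25, and RPS15A by 0.28. All 3 kept their calls with each library left out.

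RPS2 and RPLP2 fell with WT. RPS2 was at 3219 and 3067 CPM in Empty and at 2687 and 2764 CPM in WT, with no overlap (log2 fold change -0.21, SE 0.0458, edgeR adjusted p = 0.00226), and the call held with each library left out. RPLP2 fell by 0.18, from 448 ± 25.4 to 394 ± 16.4 CPM. Its call was lost without E419Q A (0.0507), E419Q B (0.0509), Empty A (0.225), WT A (0.247) or WT B (0.0582), and with upper-quartile scaling (0.0948). RPL39L, the gene with the largest fall in BICR31, was at 69.7 ± 2.64 CPM in Empty and 69.3 ± 16.5 in WT (95% interval of the log2 fold change -0.25 to 0.25). RPS29 gave 0.13 (-0.02 to 0.27) and RPLP0 gave 0.09 (-0.01 to 0.19), neither passing the test.

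By subunit, 24 of 47 large-subunit genes rose and 1 fell (median 0.15), and 13 of 33 small-subunit genes rose and 1 fell (median 0.11). The small-subunit median was 0.06 without Empty B and also 0.06 with the length trend removed. Over the 32 tested genes with whole counts, 14 rose and 1 fell. The number of genes that rose was 21 without Empty B, 17 without WT A, 25 without WT B and 41 without Empty A, and 15 of the 37 kept their call whichever library was left out. The 5 immune markers summed to 64.7 CPM in both Empty libraries, all of it from CD68 (PTPRC, MS4A1, CD14 and CD3E at 0). In WT the 5 summed to 47.4 and 48.3 (PTPRC, MS4A1 and CD3E at 0). The 5 fibroblast markers summed to 10.3 and 11.6 CPM in Empty (LUM and COL1A2 at 0) and to 7.11 and 7.51 in WT (DCN, LUM and COL1A2 at 0), and the 3 endothelial ones (KDR at 0) to 11.4 and 14.2 against 12.3 and 16.5. The squamous markers summed to 19316 and 20346.5 CPM in Empty and to 22489 and 23560 in WT, and the part of these in the result was not tested.

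With E419Q, 14 of the 80 genes tested rose and 8 fell relative to Empty. The 17.5% that rose compare with 10.4% of all genes and 18.1% of the 926 other genes of the highest means, and the 10% that fell with 10.8% and 32.2%. The median was 0.04 against 0.00 over all genes. It was -0.002 without Empty B, 0.01 without E419Q B, 0.06 without Empty A, 0.07 with library totals alone and 0.02 with copies added. This comparison shares the Empty libraries with that of WT, so the 2 are not independent. The median of the large-subunit genes was 0.06 (10 rose and 3 fell of 47), and that of the small-subunit genes was -0.01 (4 rose and 5 fell of 33). The large-subunit median was 0.01 without Empty B and 0.04 without E419Q B. That of the small subunit was 0.01 with upper-quartile scaling, 0.02 with library totals alone, -0.03 with the length trend removed, -0.02 without the filter, -0.06 without Empty B, 0.01 without E419Q A and 0.03 without Empty A. The libraries did not overlap in 48 of 80 genes, against 59.0% of all genes.

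RPL31 was at 740.2 and 782 CPM with E419Q, above both Empty libraries (log2 fold change 0.32, SE 0.0558, edgeR adjusted p = 2.09e-04). RPL35A was at 1087 and 1071 CPM (0.25, edgeR adjusted p = 9.80e-04) and RPS18 at 1739 and 1782 CPM (0.21, edgeR adjusted p = 0.00337). RPL15, of the large subunit, rose by 0.23. These 4 kept their calls with each library left out. RPS2 was at 2779 and 2715 CPM, under both Empty libraries (-0.19, SE 0.0459, edgeR adjusted p = 0.00366), and kept its call as well. The other 10 that rose (RPS3A, RPS15A, RPL29, RPL13, RPL34, RPL26, RPL7, RPL6, RPS6 and RPL10A) each lost the call in at least 2 of the 6 fits with 1 library left out.

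Other genes that fell with E419Q included RPS12, RPLP1, RPLP2, RPS26, RPL10 and RPSA. RPLP1 fell by 0.20 on the log2 scale, a call lost without E419Q A (adjusted p = 0.1602) or Empty A (0.216), and RPLP2 by 0.21, lost without E419Q A (0.0976), E419Q B (0.0780) or Empty A (0.116). RPS12, of the beak of the small subunit, fell by 0.21, lost without E419Q A (0.0569), E419Q B (0.0931) or Empty A (0.107). RPS26, at the messenger RNA exit, was at 8.004 and 8.94 CPM with E419Q against 16.4 and 13.8 in Empty (-0.82), a value from few counts, and its call was lost without E419Q A (0.118), E419Q B (0.0862) or Empty A (0.0982). RPL10 fell by 0.16, lost without E419Q A (0.126), E419Q B (0.1001) or Empty A (0.162) and with library totals alone. RPSA fell by 0.15, lost without E419Q B (0.330), Empty A (0.102), WT A (0.0515) or WT B (0.0525), with both other scalings and with only the 2 groups compared. Without Empty B, 6 genes rose and 13 fell, and without Empty A, 16 rose and 2 fell, so the balance of the calls moved with the choice of Empty library. Without E419Q A 7 rose and 3 fell, and without E419Q B 4 rose and 3 fell. With E419Q the 3 endothelial markers summed to 26.3 and 28.5 CPM (KDR at 0), the 5 fibroblast markers to 12.04 and 16.6 (DCN and LUM at 0), the 5 immune markers to 49.8 and 50.1 (MS4A1 and CD3E at 0) and the squamous markers to 13633 and 14358, and their part in the result was not tested.

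Set directly against WT, E419Q gave lower values for nearly all genes. Of 80 genes, 75 had a negative log2 fold change, with a median of -0.09 against -0.00 over all genes. Passing the test, 10 fell and 0 rose, against 3.59% of all genes that fell and 4.41% that rose. Among 926 other genes of the highest means, 12.5% fell and 10.3% rose, and 12.5% of the 80 ribosomal protein genes fell too. By unadjusted p under 0.05, 31 genes passed, against 2460 of all 12933 genes. DESeq2 called 4 falls and 0 rises. Of the calls, 8 were among 33 small-subunit genes and 2 among 47 large-subunit genes. This split moved with the setting. It was 9 and 8 with upper-quartile scaling, and 9 and 9 without the filter or with only the 2 groups compared. It was 6 and 1 with library totals alone, 4 and 1 with the length trend removed and 3 and 1 with DESeq2. The medians of both subunits were -0.09 (-0.06 for the large subunit without E419Q A).

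RPS9, a protein of the small subunit's body, was at 665 and 637 CPM in WT and at 542.5 and 557 CPM with E419Q, with no overlap (log2 fold change -0.24, SE 0.0551, edgeR adjusted p = 0.00523). Its call was lost without E419Q A (0.0777) or WT A (0.0927). RPLP0 was at 2445 and 2425 CPM in WT and at 2128 and 2147 CPM with E419Q (-0.19, edgeR adjusted p = 0.0147), a call lost without E419Q A (0.109), E419Q B (0.0819), WT A (0.107) or WT B (0.0783). RPS3 fell by 0.18, RPS16 by 0.20, RPS20 by 0.20, RPS12 by 0.21, RPS29 by 0.26 and RPL13A by 0.19, and each of these 6 lost its call in at least 3 of the 6 fits with 1 library left out. The count of falls was 2 without E419Q A, 4 without E419Q B, 1 without WT A, 3 without WT B and 18 without either Empty library. RPL31, RPL35A and RPS18, which rose with both forms, did not pass the test between them: RPL31 gave -0.07 (95% interval -0.18 to 0.05), RPL35A -0.11 (-0.21 to -0.00) and RPS18 -0.10 (-0.20 to 0.00). RPS2 gave 0.01 (-0.08 to 0.11).

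**Figure D4:**
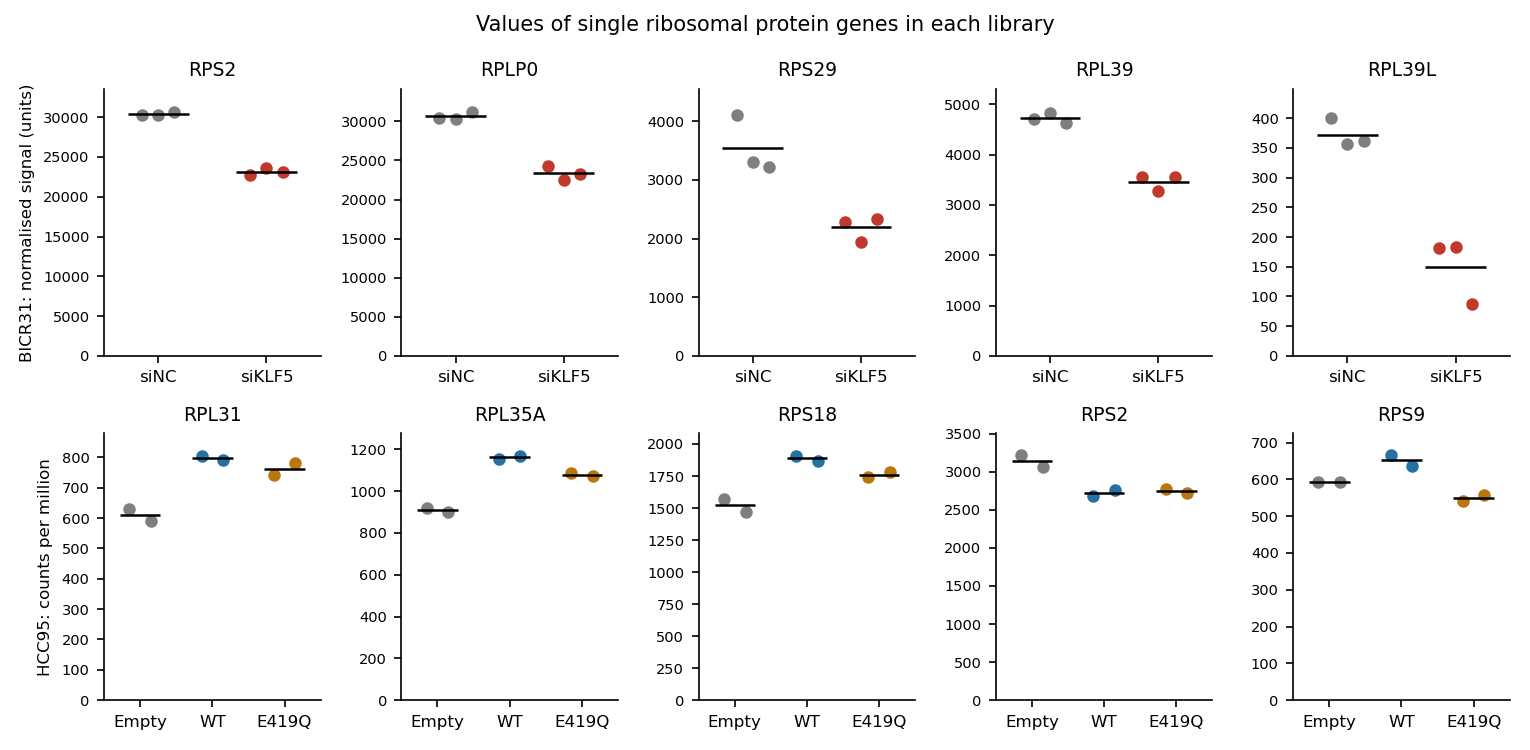
Values in each library of single genes, as deposited signal in BICR31 (top) and CPM in HCC95 (bottom), with points for libraries and bars for group means, all axes starting at 0. RPS2 is lower with siKLF5 in BICR31 and lower with both WT and E419Q in HCC95, while RPL31, RPL35A and RPS18 are higher with both KLF5 forms.

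The 2 lines share no libraries, so their calls can be set side by side. Of the 80 genes tested in both, 13 fell with siKLF5 and rose with WT, which is 16.25% of those tested, against 1.75% (217 of 12432) of all genes. They were RPL3, RPL7, RPL10A, RPL12, RPL21, RPL22, RPL30, RPS3, RPS3A, RPS6, RPS16, RPS20 and RPS25, 7 of the large and 6 of the small subunit. They made up 35.1% of the genes that fell with siKLF5 and 35.1% of those that rose with WT, against 13.4% and 16.1% over all genes. Of the 80 genes as a whole, 46.25% rose with WT and 46.25% fell with siKLF5, so both shares lie under those of the whole set. No ribosomal protein gene rose with siKLF5 and fell with WT (388 of 12432 over all genes), 1 (RPS2) fell in both (329), and 2 (RPL13 and RPL37A) rose in both (274). The rise of RPL37A with WT was lost in 4 of the 6 fits with 1 library left out (adjusted p up to 0.425). The number of genes that fell with siKLF5 and rose with WT was 7 with DESeq2 for WT, 2 without WT A, 5 without Empty B, 8 without WT B and 16 without Empty A, and between 11 and 13 with a BICR31 library left out. None of the 13 kept both calls under every such omission, and the rise of RPL21 did not pass once reads of its copies were added. Of the genes described most fully above, RPL31 gave 0.10 with siKLF5 (95% interval -0.03 to 0.22), and RPS29 and RPL39L passed no test with WT.

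**Figure D5:**
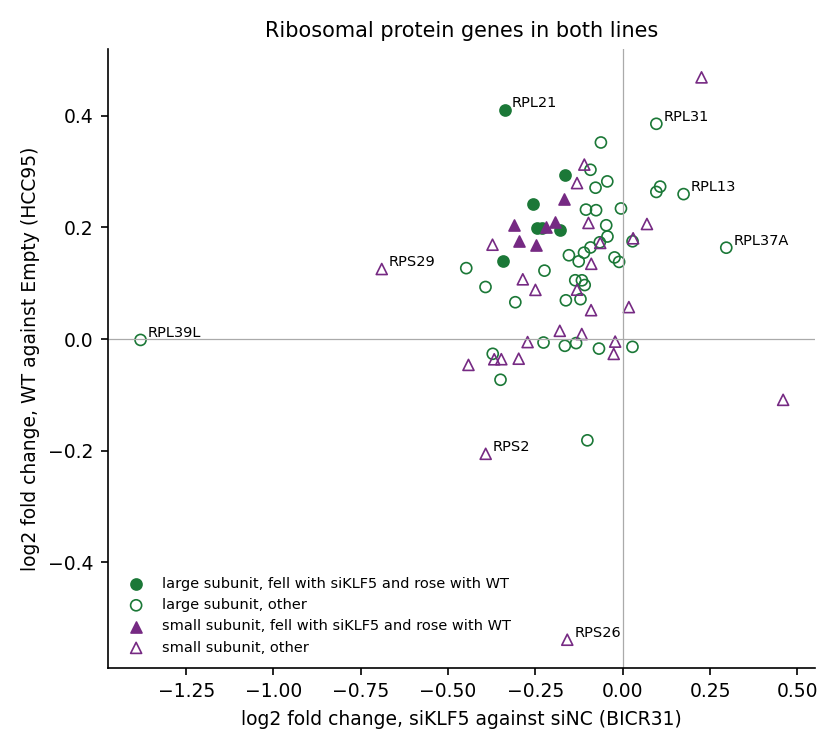
Log2 fold change of each ribosomal protein gene with siKLF5 in BICR31 (horizontal axis) and with WT in HCC95 (vertical axis), circles for large-subunit and triangles for small-subunit genes, filled for the 13 that fell in the first and rose in the second. The filled points lie to the upper left of the crossing at 0, and RPS2 lies at -0.39 and -0.21.

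Other genes of the pathway did not all move with the ribosomal proteins. FAU encodes the protein S30 as a fusion with a ubiquitin-like protein. FAU fell with WT, from 405.5 ± 8.36 to 346 ± 7.34 CPM (log2 fold change -0.23, edgeR adjusted p = 0.00759). It also fell with E419Q against the same Empty libraries (-0.24). RPS27A, a fusion with ubiquitin that the symbol rule does include, gave -0.03 with WT (95% interval -0.14 to 0.08). Of the 6 ribosomal protein genes outside the rule, 3 fell and 0 rose with WT, and 0 passed the test with siKLF5 (limma, 3 by unadjusted p under 0.05). The 50% that fell with WT compare with 12.1% of all genes.

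Among 19 genes listed as translation factors with TOP messenger RNAs, 9 fell and 1 rose with siKLF5 (median -0.13), and 11 rose and 1 fell with WT (median 0.17). The list also takes in TPT1 and the nucleolar NPM1, and the tracts of its genes were not looked up in the windows. The share that fell with siKLF5 was 47.4%, against 10.8% of all genes, and the share that rose with WT 57.9%, against 10.8%. EEF1G, a subunit of elongation factor 1, rose by 0.35 with WT (2034 ± 8.30 to 2595 ± 72.7 CPM), EIF4B, which helps unwind messenger RNAs, by 0.39, and TPT1, a translationally controlled protein, by 0.32. NPM1, the nucleolar protein that carries ribosomal proteins, went down in every contrast with its control: it fell by 0.58 with siKLF5 (limma adjusted p = 5.40e-09), by 0.27 with WT and by 0.30 with E419Q. With E419Q against Empty 1 of the 19 rose and 3 fell (5.26% and 15.8%, against 10.4% and 10.8% of all genes). Against WT 0 rose and 4 fell (21.1%, against 3.59% of all genes).

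Of the genes that make or assemble ribosomes, most did not pass the test. Of 16 chaperones and late assembly factors, 4 fell and 0 rose with siKLF5, 5 fell and 1 rose with WT, and 5 fell and 0 rose with E419Q. The 31.25% that fell with WT compare with 12.1% of all genes and 34.3% of the other genes of the highest means. With E419Q, 31.25% fell, against 10.8% and 32.2%, and with siKLF5 25%, against 10.8% and 26.8%. EIF6, which keeps immature large subunits from joining, fell by 0.43 with WT, and MRTO4, a P0-like placeholder in the immature large subunit, fell by 0.49 with WT and by 0.52 with siKLF5. Of 14 genes of RNA polymerase I and its factors, 4 fell and 0 rose with siKLF5 (POLR1E -0.96, POLR1B -0.92), and 3 fell and 0 rose with WT. These are 28.6% and 21.4% that fell, against 10.8% and 12.1% of all genes. Of 13 snoRNA host genes 3 fell and 0 rose with siKLF5, among them SNHG1 (-0.82), and 2 rose and 2 fell with WT. The 23.1% that fell with siKLF5 compare with 10.8% of all genes. With WT 15.4% rose and 15.4% fell, against 10.8% and 12.1%.

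Of 14 genes around mTOR and LARP1, 3 rose and 1 fell with siKLF5 (21.4% and 7.14%, against 15.3% and 10.8% of all genes). Of the 13 tested in HCC95, 1 rose and 4 fell with WT and again 1 rose and 4 fell with E419Q against the same Empty libraries. The 30.8% that fell compare with 12.1% and 10.8% of all genes. Among the other genes of the highest means 34.3% and 32.2% fell. Of 9 transcription factors of these genes, 1 fell with siKLF5, 1 rose with WT and 1 fell with E419Q. Each is 11.1% of the list, near the 10.8% of all genes called that way in each comparison. LARP1, which binds TOP tracts, fell by 0.41 with WT (575 to 434 CPM, edgeR adjusted p = 1.17e-05), and EIF4EBP1, an mTOR substrate that blocks cap binding, fell by 0.51. LARP1 gave -0.06 with siKLF5 (limma adjusted p = 0.455). MYC fell by 0.49 with siKLF5 (2558 ± 244 against 3593 ± 81.0 units, limma adjusted p = 8.27e-05). With WT, MYC gave -0.05 (edgeR adjusted p = 0.621), and with E419Q it fell by 0.37 against Empty and by 0.32 against WT. GABPA rose by 0.47 with WT (25.9 ± 4.31 to 35.3 CPM, edgeR adjusted p = 0.0201).

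The mitochondrial ribosome is built from a separate set of proteins. Of 77 genes 21 fell and 2 rose with siKLF5 (median -0.22), so that 27.3% fell, against 10.8% of all genes. Of 76 genes 12 fell and 0 rose with WT (median -0.07), and 8 fell and 2 rose with E419Q, which is 15.8% and 10.5% that fell, against 12.1% and 10.8% of all genes. Of the 76, 0 changed between E419Q and WT (edgeR, 6 by unadjusted p under 0.05). MRPL17 fell by 1.53 with siKLF5 (476 ± 96.7 against 1353 ± 29.8 units), and MRPS2 by 0.58 with WT.

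Genes with a tract at the start and those without could be set side by side, though 6 of the 7 without one were tested. With siKLF5 26 of 57 genes with a tract fell (median -0.13), and 1 of 6 without a tract, RPS29, fell (median -0.05). Over all genes 10.8% fell. With WT 26 of 57 with a tract and 2 of 6 without one rose (medians 0.15 and 0.09), against 10.8% of all genes. Between E419Q and WT 56 of the 57 with a tract and 5 of the 6 without one had a negative value. Gene length ran from 297 to 1374 bases over the genes tested in HCC95 and showed Spearman correlations of -0.15 with the log2 fold change of siKLF5 (81 genes) and of -0.10 with that of WT (80 genes), given as descriptions. With siKLF5, other genes shorter than 1000 bases had a median of -0.05, with 7.80% that fell and 6.09% that rose.

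Ribosomal protein genes have many processed copies in the genome, and reads that fit several places are divided between them. The table of genes held 802 pseudogenes named for one of the 83. Counts were whole in all 6 HCC95 libraries (within 0.005) for 35 of the 83 genes and fractional for 48. In HCC95 RPL21 held a mean of 204 expected counts, and its copy RPL21P75 held 1044, whereas in BICR31 RPL21 held 7122 units and RPL21P75 223. RPL9 held 306 counts, and RPL9P8 alone 754. When the copies were added to their parent genes, which was chosen after seeing the data, RPL21 no longer differed with WT (-0.06, edgeR adjusted p = 0.574, against 0.41 without them). The numbers of genes called changed little: 40 fell and 2 rose with siKLF5, 37 rose and 2 fell with WT, and 10 fell between E419Q and WT.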

How the data were processed

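Total RNA was extracted on RNeasy columns and NEB kits were used for poly(A) selection and library construction, per the labels' protocols. STAR, RSEM and hg19 are named in the submitters' processing notes, without versions. The HCC95 files hold RSEM expected counts per gene, unscaled, with TPM and FPKM columns and gene lengths, as deposited by the authors, per the file headers. FPKM was not used. The BICR31 files hold a signal that the authors deposited as normalised values, and no source used here says how they scaled it. The counts of a BICR31 library were estimated from what 1 count is worth in its low values, and intervals cover the spread between libraries only.

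For BICR31, limma 3.58.1 with a mean-variance trend was fitted to log2(signal + 1), keeping the 15710 genes that averaged 10 units or more, and these fold changes understate the change of low genes. For HCC95, rounded expected counts were fitted with edgeR 4.0.16 (quasi-likelihood, TMM, filterByExpr, 12933 genes, all 6 libraries). CPM are counts divided by the TMM-scaled library size. P-values are two-sided and Benjamini-Hochberg adjusted over all genes tested, with a threshold of 0.05. DESeq2 1.42.0 and other scalings, filters and omissions of libraries were alternatives. The fits were also run on simulated data, but the changes put in there were larger than most changes given here. Calls of the size given here were therefore not tested by it. Versions of R and Python were 4.3.3 and 3.11.15.

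Genes named were KLF5, in each comparison up to 8 members rising and 8 falling with the smallest adjusted p, members called more than once, paralogs with their parents, the 5 highest and 5 lowest in TPM, members under the filter, and up to 3 genes per list and comparison. RPL4, RPL7A, RPL9, RPL11, RPL14, RPL23, RPL28, RPS13 and RPS27A were added after their values were seen. The members and lists were chosen with earlier results of these data known. Pseudogenes were found by symbol, with GENCODE 29 for biotypes. Start windows and promoters are from RefSeq (GRCh38.p14). Some genes that the rule names are not reported here.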

Additional observations from a re-analysis of the deposited data

How the results depend on the processing

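With siKLF5, 1 gene in place of 2 rose without the filter, with quantile normalisation and with TMM scaling. In place of 37, 44 fell with quantile normalisation, 51 with TMM scaling and 31 without the filter. With the length trend removed 3 rose and 31 fell. With 1 library left out, 1 to 2 rose and 30 to 37 fell. Over all genes 58.7% of the calls in BICR31 were rises, against 48.5% with quantile normalisation and 50.6% with TMM scaling. With the length trend removed there were 2023 rises beside 2023 falls. Upper-quartile scaling gave 46 ribosomal protein genes that rose with WT in place of 37, and removal of the length trend gave 27. With WT, 21 genes in place of 37 rose with DESeq2, and 17 to 41 with 1 library left out. Falls with WT went from 2 to 1 with upper-quartile scaling, with only the 2 groups compared and with DESeq2, and were 1 to 2 with 1 library left out. With E419Q against Empty, 5 rose and 5 fell with DESeq2 in place of 14 and 8, and 4 to 16 rose and 2 to 13 fell with 1 library left out. Between E419Q and WT, 17 fell with upper-quartile scaling, 18 without the filter, 5 with the length trend removed, 18 with only the 2 groups and 4 with DESeq2 in place of 10, and 1 to 18 with 1 library left out. The cause was not tested. Over all genes, DESeq2 called 407 rises and 554 falls with WT in place of 1394 and 1568, 451 and 512 with E419Q in place of 1340 and 1397, and 214 and 173 between E419Q and WT in place of 570 and 464. With 1 library left out these were 785 to 1322 and 934 to 1471, 822 to 1255 and 804 to 1348, and 341 to 637 and 249 to 536. Where a fit left 1 library in a group, that library was taken to vary as the others do. The replicate letters did not pair the libraries (correlations of same-letter deviations from -0.03 to 0.03), and a replicate block gave 2 rises and 36 falls with siKLF5, 36 and 2 with WT, 14 and 8 with E419Q against Empty, and 0 and 9 between E419Q and WT. Among the values of single genes that passed the test 1 reversed, with copies added, that of RPL21 (WT against Empty, -0.061 in place of 0.41). Of the other values of single genes, 1872 stayed on their side of the threshold, 180 no longer passed it and 37 came to pass it. The 2 or 3 libraries a group limit precision, and reads of near-identical copies are divided by the counting.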
